A study of Mus musculus with 6 samples.

Results

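Cxcl12, Kitl, Lepr, Foxc1, Ebf3, Adipoq, Angpt1 and Il7 mark the stroma of the bone marrow niche, and their RNA was read in monocyte preparations from the mandible and the femur of mice. The genes were chosen by name, with earlier results of these data known, as markers of CXCL12-abundant reticular and leptin receptor stroma. All 8 were found among the 57010 genes of the table. Bulk RNA was sequenced in 6 libraries from C57BL/6 mice 1 year old, with 3 femur-derived libraries (S13, S15 and S18) and 3 mandibular-derived libraries (S16, S19 and S23). Marrow was flushed from dissected bones, and monocytes were kept as the unbound fraction after an antibody cocktail and magnetic beads had removed other cells. No treatment or allele separated the groups, which differed in skeletal site. Mice of both sexes were used, and the animal, or pool of animals, behind each library was not given in the sources used here, so that p-values measured the spread between these libraries, which may be technical.

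The stroma of the marrow is a net of perivascular reticular cells, sparse among the blood-forming cells they support. These cells secrete CXCL12, the chemokine that holds stem cells and B cell precursors in the marrow through the receptor CXCR4, and stem cell factor, the product of Kitl, which keeps stem cells alive through KIT. The same cells carry the leptin receptor, depend on the transcription factors FOXC1 and EBF3, and include the adipogenic cells that make adiponectin. IL-7, made by an overlapping set of cells, is required for B cell development, and angiopoietin-1 acts on the TIE2 receptor of vessels and stem cells. Angpt1 is also made by blood-forming cells, and Cxcl12 and Kitl by vessel and bone-forming cells, so that none of these 3 is particular to reticular stroma.

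The libraries held 15718782 to 25371474 counts, and values are given as counts per 1000000 counts of the library (CPM), scaled by the trimmed mean of M-values (TMM). The level that a count of 0 allows, 3 counts, was 0.133 to 0.172 CPM in these libraries and covers counting error alone. Of 12 monocyte markers, all were tested and 0 were called by edgeR, 1 had an unadjusted p under 0.05 in edgeR, and DESeq2 and limma-voom called 0. Their summed level ran from 8798 to 15385 CPM in femur libraries and from 7336 to 13053 CPM in mandible libraries, so monocyte genes were abundant at both sites. S23 differed from the others in its sex-linked genes, with Xist at 1441 CPM and 0 counts on Y-linked genes, where the other 5 libraries had Xist at no more than 0.553 CPM and 2772 to 4590 Y-linked counts. Sex and the library cannot be told apart within the mandible, and values without S23 are given where they matter.

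None of the 8 niche genes was called different between the sites, with edgeR's quasi-likelihood test (Benjamini-Hochberg adjusted p below 0.05, at least a 2-fold difference), against 5.18% of the 18114 genes tested. All 8 passed the filter on low counts. The unadjusted p in edgeR was under 0.05 for 2 of the 8, Cxcl12 and Adipoq, and for 16.4% of all genes tested, and these 2 were called by DESeq2, while limma-voom called Cxcl12 alone. The fitted difference was below 0, lower in the mandible, for 6 of the 8 genes, and the median log2 fold change was -0.42, where the median over all genes tested was -0.04. The median of the 8 was -0.94 without S23, -0.21 without S13 and -0.86 with a gene length trend removed. Every mandible library lay below every femur library for Cxcl12, Ebf3 and Adipoq, 3 of 8, and this was so for 11.5% of all genes tested. The reverse, a complete separation with the mandible higher, was seen for none of the 8 and for 12.7% of all genes tested. Summed over the 8 genes, the level was 344, 213 and 263 CPM in femur libraries S13, S15 and S18 and 70.5, 108 and 221 CPM in mandible libraries S16, S19 and S23. The sums of the sites overlapped through S23, the highest mandible library, which lay above femur S15. In bulk RNA, fewer stromal cells and less RNA of these genes in each cell cannot be told apart.

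**Figure D1:**
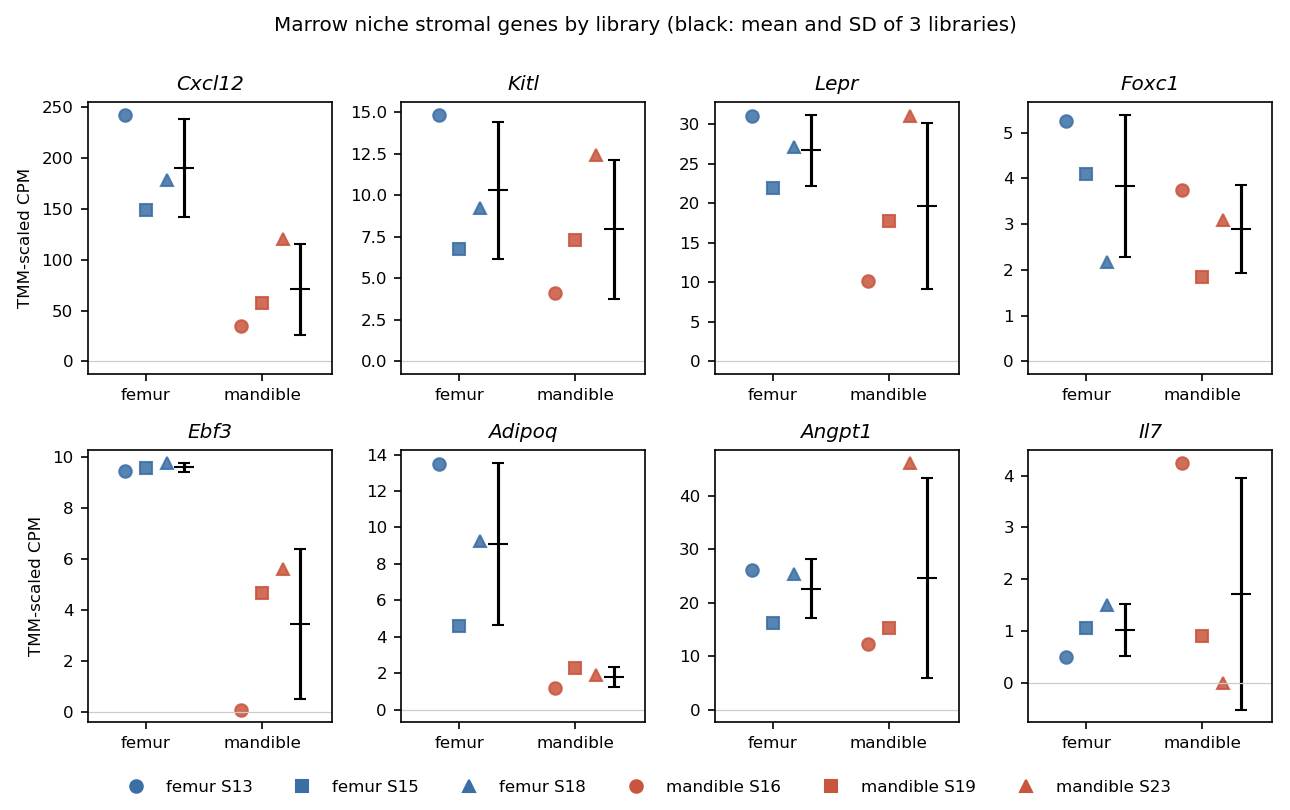
TMM-scaled CPM (vertical axes, each from near 0) of the 8 genes in each of 3 femur and 3 mandible libraries, with the mean and SD in black. Cxcl12, Ebf3 and Adipoq have every mandible library below every femur library, and in Il7 the SD bar of the mandible, 2.24 CPM around a mean of 1.72 CPM, runs below 0.

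Cxcl12 (ENSMUSG00000061353, plus strand of chr6:117168535-117181367, GRCm38) was the most abundant of the 8 genes at both sites. It stood at 243, 149 and 178 CPM in femur libraries S13, S15 and S18, and at 34.7, 57.7 and 121 CPM in mandible libraries S16, S19 and S23. The libraries did not overlap, and S23 came closest to the femur. The means of femur and mandible were 190 ± 48.3 and 71.1 ± 44.7 CPM (SD, n = 3 each). The fitted log2 fold change, mandible over femur, was -1.42 (SE 0.42, 95% interval -2.33 to -0.50), a femur-to-mandible ratio of 2.67, and missed the threshold in edgeR's quasi-likelihood test (Benjamini-Hochberg adjusted p = 0.084). Over the 6 libraries, the exact two-sided permutation test gave p = 0.1, the smallest that 3 against 3 libraries allow. Without S23 the difference passed, at a log2 fold change of -2.09 (edgeR adjusted p = 0.014), and without S15 it passed at -1.61 (edgeR adjusted p = 0.042). It also passed in DESeq2, at -1.37 (adjusted p = 0.017), and over all alternatives its adjusted p in the models across genes ran from 0.00030 to 0.32.

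Kitl (ENSMUSG00000019966, plus strand of chr10:100015630-100100416), the stem cell factor gene, was read at 14.9, 6.77 and 9.23 CPM in S13, S15 and S18 of the femur. In S16, S19 and S23 of the mandible it was read at 4.10, 7.31 and 12.4 CPM. The ranges overlapped widely, and S23 lay above S15 and S18 of the femur. Its log2 fold change was -0.37 (SE 0.54, 95% interval -1.55 to 0.80; edgeR quasi-likelihood, Benjamini-Hochberg adjusted p = 0.84), an interval that leaves room for a difference of more than 2-fold in the direction of the femur.

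Il7 (ENSMUSG00000040329, minus strand of chr3:7569994-7613760), the B cell growth factor gene, was the least abundant of the 8 per unit of length. Its femur libraries S13, S15 and S18 held 9, 23 and 34 counts, 0.497, 1.06 and 1.5 CPM. Its mandible libraries S16, S19 and S23 held 85, 19 and 0 counts, 4.25, 0.902 and 0 CPM. The mandible libraries thus held both the highest and the lowest value of the 6, and S23 was under the 0.172 CPM that a count of 0 allows there. The log2 fold change of 0.75 (SE 1.58, 95% interval -2.72 to 4.22; edgeR quasi-likelihood, Benjamini-Hochberg adjusted p = 0.90) rested on S16, since it was -1.15 without that library, and the spread between the mandible libraries leaves its direction undetermined.

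Angpt1 (ENSMUSG00000022309, minus strand of chr15:42424723-42676977), the gene of the vessel ligand angiopoietin-1, had 26.1, 16.3 and 25.4 CPM in femur S13, S15 and S18. It had 12.3, 15.3 and 46.2 CPM in mandible S16, S19 and S23. S16 and S19 lay below all femur libraries and S23 above all of them. For Angpt1 the log2 fold change was 0.12 (SE 0.48, 95% interval -0.93 to 1.18; edgeR quasi-likelihood, Benjamini-Hochberg adjusted p = 0.95), and it turned to -0.76 without S23 and to -0.11 without femur S15. An antisense gene that shares exons with it, Gm17473, held 0 to 39 counts, against 245 to 807 for Angpt1, and whether strand was used in counting is not given in the sources used here.

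Adipoq (ENSMUSG00000022878, plus strand of chr16:23146536-23158028), which encodes adiponectin, showed the largest fitted difference of the 8 genes. It was counted 244, 99 and 209 times in femur S13, S15 and S18, or 13.5, 4.56 and 9.23 CPM. In mandible S16, S19 and S23 it was counted 24, 48 and 33 times, or 1.20, 2.28 and 1.89 CPM. The sites did not overlap, the mandible libraries were close to each other, and S13 was the highest of the femur. Means were 9.09 ± 4.46 and 1.79 ± 0.546 CPM (SD, n = 3 each). The log2 fold change was -2.34 (SE 0.66, 95% interval -3.78 to -0.90), a femur-to-mandible ratio of 5.06, and it missed the threshold in edgeR's quasi-likelihood test (Benjamini-Hochberg adjusted p = 0.069; exact two-sided permutation p = 0.1, the smallest possible). It passed in DESeq2, at -2.32 (adjusted p = 0.010), and in edgeR without femur S15, at -2.71 (adjusted p = 0.029), and over all alternatives its adjusted p in the models across genes ran from 0.010 to 0.45.

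Lepr (ENSMUSG00000057722, plus strand of chr4:101717404-101815352) encodes the receptor of leptin, which gives this stroma its name. Femur S13, S15 and S18 had 31.0, 22.0 and 27.1 CPM, and mandible S16, S19 and S23 had 10.2, 17.8 and 31.0 CPM. S16 and S19 lay below the femur, and S23 equalled its highest library. Lepr had a log2 fold change of -0.44 (SE 0.41, 95% interval -1.33 to 0.45; edgeR quasi-likelihood, Benjamini-Hochberg adjusted p = 0.70), which without S23 was -0.99 and still did not pass.

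The 2 transcription factor genes were low. Foxc1 (ENSMUSG00000050295, plus strand of chr13:31806633-31812476), whose product maintains reticular cells, had 5.25, 4.10 and 2.17 CPM in femur S13, S15 and S18 and 3.75, 1.85 and 3.09 CPM in mandible S16, S19 and S23. Its ranges overlapped, with a log2 fold change of -0.40 (SE 0.76, 95% interval -2.07 to 1.26; edgeR quasi-likelihood, Benjamini-Hochberg adjusted p = 0.89). Ebf3 (ENSMUSG00000010476, minus strand of chr7:137193673-137314445), which keeps the marrow cavity open to blood formation, was nearly constant in the femur, at 9.45, 9.54 and 9.76 CPM in S13, S15 and S18. In the mandible it was 0.10 CPM in S16, from 2 counts, and 4.65 and 5.61 CPM in S19 and S23. Every mandible library lay below the femur, and S16 was nearly without Ebf3. The coefficient of variation of Ebf3 was 1.71% in the femur and 85.2% in the mandible (n = 3 each). Its log2 fold change of -1.47 (SE 0.93, 95% interval -3.51 to 0.56) did not pass in edgeR's quasi-likelihood test (Benjamini-Hochberg adjusted p = 0.51), and was -0.90 without S16. Antisense genes that overlap Ebf3 held 0 to 20 counts.

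Relative to the mean, the mandible libraries differed from each other more than the femur libraries for most of the 8 genes. The coefficient of variation was larger in the mandible for 6 of the 8, and the share over all genes tested was not computed. The SD in CPM was larger in the femur for Cxcl12, Foxc1 and Adipoq. S16 was the lowest mandible library for 6 of the 8 genes and S23 the highest for 5. In the femur, S13 was the highest library for 6 of the 8 genes and S15 the lowest for 5. A set of genes of most connective tissues (collagens, decorin, lumican and others, called general mesenchyme here) summed to 9200, 12366 and 16227 CPM in S16, S19 and S23, so the same library was lowest and the same highest. In the femur it summed to 197, 217 and 139 CPM in S13, S15 and S18, where S15 was the highest. The part of these sums in the niche genes' spread was not tested.

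Levels of the 8 genes were compared with each other per kilobase of gene length, in TMM-scaled CPM per kilobase. In the femur the order of the mean levels was Cxcl12 at 23.2 ± 5.90, Adipoq at 6.58 ± 3.23, Angpt1 at 4.34 ± 1.05, Lepr at 3.79 ± 0.641, Kitl at 1.74 ± 0.701, Ebf3 at 1.04 ± 0.0177, Foxc1 at 0.657 ± 0.267 and Il7 at 0.18 ± 0.0889 (SD, n = 3). Within each femur library the 8 genes stood in this same order, although the ranges of Adipoq and Angpt1, and of Angpt1 and Lepr, overlapped. In the mandible, Cxcl12 again came first at 8.70 ± 5.46, followed by Angpt1 at 4.72 ± 3.60, Lepr at 2.79 ± 1.5, Kitl at 1.34 ± 0.709 and Adipoq at 1.3 ± 0.395. Foxc1 at 0.496 ± 0.165, Ebf3 at 0.374 ± 0.319 and Il7 at 0.303 ± 0.396 came last there. Adipoq thus moved from the second place to the fifth, and of the neighbours in the mandible order only Adipoq and Foxc1 had ranges that did not overlap. Kitl was above Adipoq in 1 of the 3 mandible libraries and Foxc1 above Ebf3 in 1, so these neighbours did not differ beyond their spread.

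Ratios between the 8 genes were taken within each library, so that they do not depend on how the library was scaled. Per kilobase, Cxcl12 was 6.76, 5.83 and 5.67 times Lepr in femur S13, S15 and S18, and 2.94, 2.79 and 3.36 times Lepr in mandible S16, S19 and S23. Against Kitl it was 11.8, 15.9 and 14.0 times in the femur and 6.11, 5.70 and 7.04 times in the mandible, in the same order of libraries. The ratios of each site were close together and the sites did not overlap. By contrast the log2 ratio of Kitl to Lepr, in CPM and not divided by length, was -1.43 ± 0.33 in the femur and -1.29 ± 0.021 in the mandible (SD, n = 3), and the sites overlapped (exact two-sided permutation p = 0.5). Of all 28 pairs of the 8 genes, 8 had ratios that did not overlap between the sites, and the share among pairs of all genes was not computed. These were Cxcl12 against Angpt1, Kitl and Lepr, with log2 differences of -1.47, -1.14 and -1.01 (mandible minus femur), Adipoq against the same 3 genes, and Ebf3 against Angpt1 and Lepr. Each of these pairs holds Cxcl12, Adipoq or Ebf3, whose own levels did not overlap between the sites, as was so for 24.2% of all genes tested. Each of the 8 pairs gave an exact two-sided permutation p of 0.1, the smallest possible, and 0.35 after Benjamini-Hochberg adjustment over the 28 pairs.

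**Figure D2:**
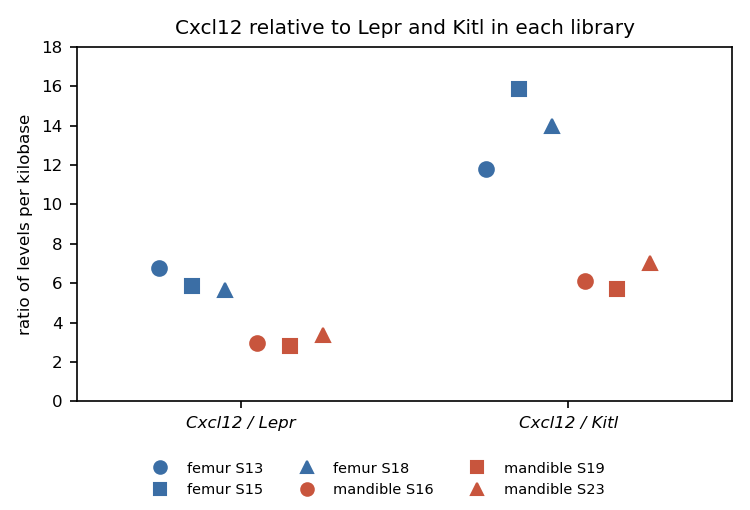
Ratio of the level per kilobase of Cxcl12 to that of Lepr (left) and Kitl (right), 1 point for each of 3 femur and 3 mandible libraries, on a vertical axis from 0. The femur lies at 5.67 to 6.76 for Lepr and 11.8 to 15.9 for Kitl, and the mandible at 2.79 to 3.36 and 5.70 to 7.04.

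The promoters of Cxcl12 and Adipoq are shown because these 2 genes came closest to a call and differ in the GC content of their promoters. Each sequence is the 250 bases before the transcript start on the sense strand, from RefSeq on GRCm38.p6, at chr6:117168285-117168534 for Cxcl12 and chr16:23146286-23146535 for Adipoq. Capitals mark the GC box, GGGCGG on either strand, in Cxcl12, and the CCAAT box, CCAAT on either strand, in Adipoq.
Cxcl12: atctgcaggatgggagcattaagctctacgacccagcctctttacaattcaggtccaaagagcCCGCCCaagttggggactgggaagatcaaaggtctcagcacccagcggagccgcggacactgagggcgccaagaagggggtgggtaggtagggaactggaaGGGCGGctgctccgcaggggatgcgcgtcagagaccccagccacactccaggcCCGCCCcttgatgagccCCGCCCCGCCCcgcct
Adipoq: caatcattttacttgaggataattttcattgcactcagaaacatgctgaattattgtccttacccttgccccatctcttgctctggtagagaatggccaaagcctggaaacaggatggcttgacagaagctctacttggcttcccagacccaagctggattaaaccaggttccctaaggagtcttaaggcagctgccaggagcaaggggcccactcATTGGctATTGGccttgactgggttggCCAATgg
Cxcl12 held 5 GC boxes, at 187, 86, 33, 16 and 11 bases before the start, the last pair overlapping by 1 base, and 14 CpG dinucleotides at a GC content of 64.4%. Adipoq held 3 CCAAT boxes, at 34, 27 and 7 bases before the start, no GC box and 0 CpG dinucleotides at a GC content of 48.8%. Of 32851 promoters of this length, 32.7% held a GC box and 33.8% a CCAAT box, and the median GC content was 52.4%. Of the other genes in the promoter table, Ebf3 had the highest GC content at 80.0% with 3 GC boxes, Kitl had 3 GC boxes and a TATAAA 25 bases before the start, Foxc1 had a GC box and a CCAAT box, and of the 2 Lepr promoters the first had a CCAAT box and the second a GC box. TATAAA was found in 12.4% of all promoters. Angpt1 and Il7 were not examined.

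The niche genes were set beside the general mesenchyme list, which was chosen with its rise in the mandible known. General mesenchyme genes rose in the mandible, with 14 of the 15 tested called higher and none lower, where 3.88% of all genes tested were called higher, and their median log2 fold change was 4.66. Col1a1, the main collagen of bone and dentin, rose from 32.2 ± 11.5 to 5801 ± 1160 CPM (SD, n = 3 each; log2 fold change 7.49, edgeR quasi-likelihood, Benjamini-Hochberg adjusted p = 1.6e-05). Col3a1, of loose connective tissue, rose by 8.49 on the log2 scale (edgeR quasi-likelihood, Benjamini-Hochberg adjusted p = 1.3e-05). Dcn, the gene of the collagen-binding proteoglycan decorin, rose from 3.30 ± 0.640 to 93.3 ± 16.2 CPM. Among the 95% intervals of the 8 niche genes, the highest upper bound was 4.22 for Il7 and the next 1.26 for Foxc1. The interval of Adipoq reached down to -3.78. The smallest fitted difference of the mesenchyme genes was 1.83 for Pdgfrb, smaller in size than the -2.34 of Adipoq. Because of how the mesenchyme list was chosen, the gap between the lists is a description and no test.

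**Figure D3:**
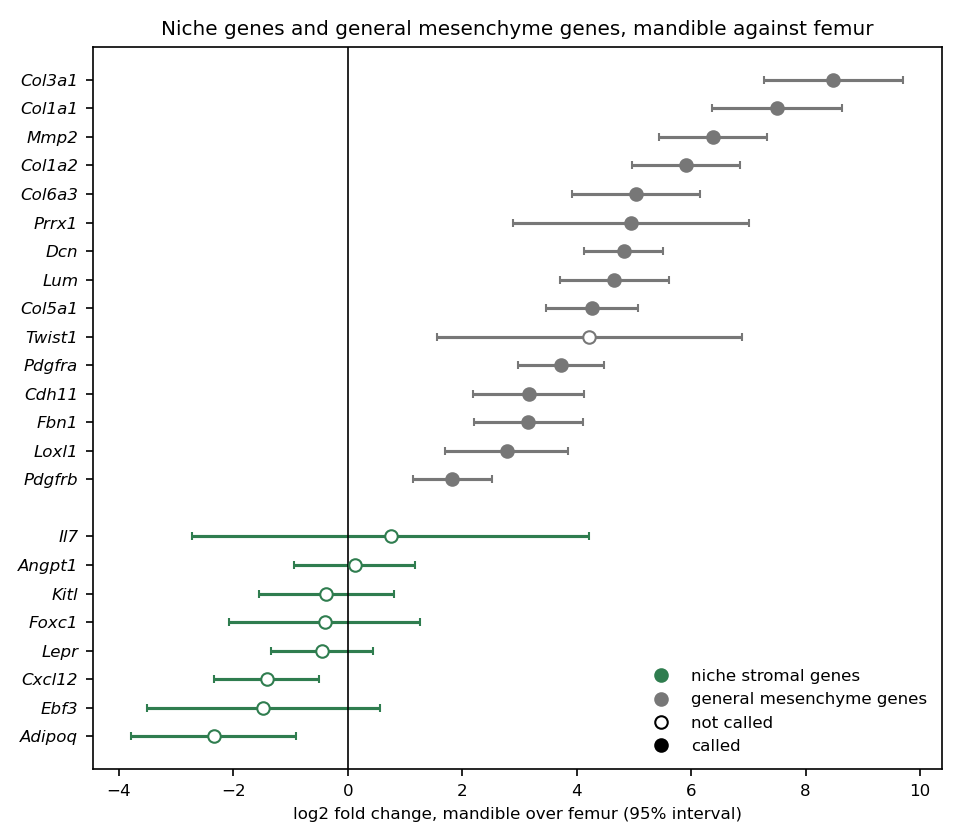
Log2 fold change, mandible over femur, with its 95% interval (horizontal axis) for the 8 niche genes in green and 15 general mesenchyme genes in grey, filled where called. The niche genes lie between -2.34 and 0.75 and are open, and the mesenchyme genes lie between 1.83 and 8.49, of which 14 are filled.

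To set this on the scale of a single library, the mean log2 CPM of the mesenchyme genes was subtracted from the log2 CPM of each niche gene. Relative to that mean, Cxcl12 was at 5.95, 4.57 and 5.51 in femur S13, S15 and S18, and at -0.92, -1.01 and -0.35 in mandible S16, S19 and S23. Cxcl12 was thus far above the mesenchyme mean in all femur libraries and below it in all mandible libraries. All 8 niche genes were lower on this scale in every mandible library than in any femur library. The difference of the means was smallest for Angpt1, at -4.63 log2, and largest for Ebf3, at -6.99, with -6.11 for Cxcl12, -6.73 for Adipoq, -5.10 for Lepr, -4.96 for Kitl, -4.89 for Foxc1 and -4.98 for Il7. Most of each difference was the rise of the mesenchyme genes themselves, and the mesenchyme list was chosen with that rise known. A gene at the same level at both sites would also be lower on this scale in the mandible, so the values are a description and no test is given. Markers of other cells of bone, tooth and vessel wall were also called in edgeR. Their lists, too, were chosen with earlier results of these data known, so the counts are a description. Called higher were 7 of 8 tested osteoblast genes, 7 of 8 enamel and dentin genes and 4 of 9 mural genes, against 3.88% of all genes tested. With S19 left out these counts were 4, 6 and 1, the lowest for any library left out, and limma-voom called 7, 5 and 0. Amelx, the main enamel protein gene, did not exceed 0.309 CPM in any femur library and was at least 3039 CPM in each mandible library. The part of these cells in the difference was not tested.

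**Figure D4:**
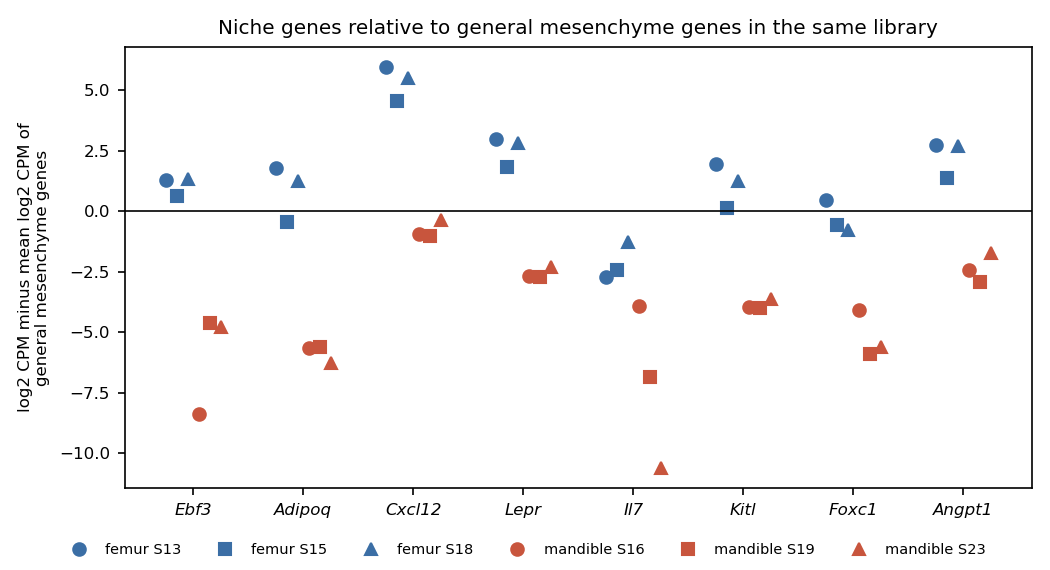
Log2 CPM of each niche gene minus the mean log2 CPM of the general mesenchyme genes in the same library (vertical axis), for 3 femur and 3 mandible libraries. For all 8 genes the mandible points lie below the femur points, for Cxcl12 at -1.01 to -0.35 against 4.57 to 5.95, and most of each drop is the rise of the mesenchyme genes.

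Other genes known from the same reticular stroma were mixed. Of 28 such genes, 27 were tested, and the median log2 fold change was 1.20. In the mandible 11 were called higher and 1 lower in edgeR, against 3.88% higher and 1.3% lower of all genes tested. DESeq2 called 13 higher and 3 lower, and limma-voom 9 and 1. This list and those that follow were chosen with earlier results of these data known, so their counts are a description and no test. The genes that rose included Pdgfra, Pdgfrb, Cdh11 and Prrx1, which also stood in the general mesenchyme list. Runx2, the master regulator of bone-forming cells, rose as well and was also counted in the osteoblast list. Ptn, a heparin-binding growth factor, rose from 0.323 ± 0.559 to 58.7 ± 9.66 CPM (SD, n = 3 each; edgeR quasi-likelihood, Benjamini-Hochberg adjusted p = 0.00098). Wif1, a secreted WNT inhibitor, rose from 1.27 ± 0.293 to 60.4 ± 13 CPM (edgeR quasi-likelihood, Benjamini-Hochberg adjusted p = 1.3e-05). Igfbp5, which binds insulin-like growth factors, rose from 73.3 ± 24.4 to 570 ± 98.3 CPM (edgeR quasi-likelihood, Benjamini-Hochberg adjusted p = 0.00042). Igfbp4 and Hp, with Igfbp5 the highest of the list in mean CPM, did not pass, at log2 differences of 1.20 and -0.30. Calls for Ebf1 and Bmp4 were lost when any 1 library was left out, that of Runx2 without S13, S19 or S23, and that of Prrx1 without S19.

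Some genes of the reticular stroma list lay lower in the mandible. Vcam1, an adhesion molecule that holds blood-forming cells, fell from 91.2, 25.4 and 77.4 CPM in femur S13, S15 and S18 to 6.25, 21.4 and 17.1 CPM in mandible S16, S19 and S23. The sites did not overlap, with femur S15 close to the highest mandible library. The log2 fold change was -2.11 (SE 0.52; edgeR quasi-likelihood, Benjamini-Hochberg adjusted p = 0.040), and the call held in 9 of 15 alternatives and in 1 of the 6 with a library left out. Without S13, S18, S16, S19 or S23 its adjusted p was above 0.05, at most 0.18. Agt, the angiotensinogen gene, Esm1 and Chrdl1 were chosen after their values were seen. They did not pass in edgeR as used above but had every mandible library below every femur library, as did 11.5% of all genes tested. Agt and Esm1 passed in DESeq2 and in edgeR with no filter, and Agt also in edgeR without mandible S19. Agt ranged from 3.14 to 6.19 CPM in femur libraries and reached at most 0.427 CPM in mandible libraries (edgeR quasi-likelihood, Benjamini-Hochberg adjusted p = 0.099), and Esm1 at 10.9 to 21.2 and 0.60 to 5.2 CPM (adjusted p = 0.092). The whole reticular stroma list then replaced the mesenchyme genes as the reference within each library. The differences of the 8 niche genes lay between -1.22 (Angpt1) and -3.59 (Ebf3), with Cxcl12 at -2.70, and the sites overlapped for Angpt1 and Il7. The reticular stroma list itself had a median log2 fold change of 1.20 and shared genes with the mesenchyme list. A gene at the same level at both sites would therefore also be lower on this scale in the mandible.

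**Figure D5:**
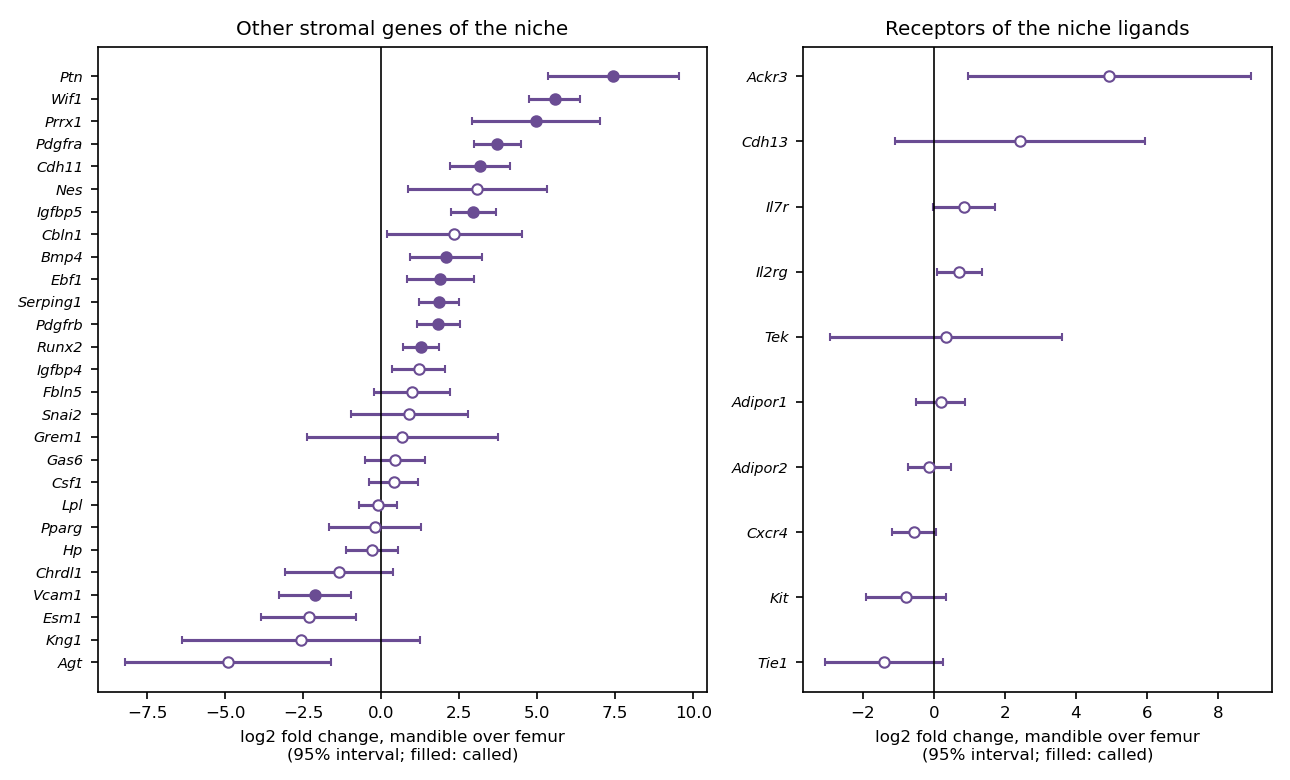
Log2 fold change, mandible over femur, with 95% intervals (horizontal axes) for 27 other genes of reticular stroma (left) and 10 receptors of the niche ligands (right), filled where called. On the left 11 genes are filled above 0 and Vcam1 below 0, and on the right no gene is filled.

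Of the 10 receptors of these ligands, found on blood-forming cells, vessels and other tissues, 0 were called by edgeR, against 5.18% of all genes tested. An unadjusted p under 0.05 in edgeR was found for 2 of them and for 16.4% of all genes tested, DESeq2 called 1, limma-voom called 0, and the median log2 fold change was 0.27. Cxcr4, the receptor of CXCL12, stood at 147, 111 and 201 CPM in femur S13, S15 and S18 and at 93.2, 116 and 102 CPM in mandible S16, S19 and S23. The sites overlapped through S15 and S19, with a log2 fold change of -0.56 (edgeR quasi-likelihood, Benjamini-Hochberg adjusted p = 0.36). Ackr3, the scavenger receptor of CXCL12, did not exceed 0.221 CPM in femur libraries and ranged from 1.32 to 3.47 CPM in mandible libraries, without overlap (edgeR quasi-likelihood, Benjamini-Hochberg adjusted p = 0.18). Kit, the receptor of stem cell factor, averaged 39.4 ± 23.6 and 22.6 ± 9.11 CPM (SD, n = 3 each), with femur S15 the lowest of all 6 at 12.2 CPM.

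The chains of the IL-7 receptor were both above 0 in their fitted differences. Il7r had a log2 fold change of 0.85 (edgeR quasi-likelihood, Benjamini-Hochberg adjusted p = 0.32), and Il2rg, the chain shared with other cytokine receptors, had 0.72 with no overlap of the sites (edgeR quasi-likelihood, Benjamini-Hochberg adjusted p = 0.23). The adiponectin receptors Adipor1 and Adipor2 had log2 fold changes of 0.19 and -0.13 and means of 114 to 221 CPM at the 2 sites. Cdh13, the cadherin that binds adiponectin, was at 0 to 5.2 CPM over all 6 libraries and was not called. Tek, which encodes the angiopoietin receptor TIE2, was at 0 to 3.04 CPM, and Tie1, its partner, had a log2 fold change of -1.42 (edgeR quasi-likelihood, Benjamini-Hochberg adjusted p = 0.41).

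The genes whose pattern over the 6 libraries was most like that of each niche gene were found by the root mean square difference of log2 CPM centred on each gene's mean. Nearest to Cxcl12 were the small nucleolar RNA host gene Snhg8 at 0.161, the ribosomal protein gene Rps12 at 0.163 and Rpl22l1 at 0.181. Nearest to Adipoq were the histone genes H2ac11 at 0.120, H4c3 at 0.167 and H4c12 at 0.173. Nearest to Lepr were Gstcd at 0.0872, 4732496C06Rik at 0.141 and Uck1 at 0.148, and to Kitl Zfp39 at 0.151, Gnpnat1 at 0.161 and Crls1 at 0.181. Foxc1 was nearest to Micu3 at 0.109, Sfxn4 at 0.132 and Sirt3 at 0.145, and Ebf3 to Shld1 at 0.231, Trp53rkb at 0.255 and Ltb4r2 at 0.258. Angpt1 was nearest to Pam16l at 0.18, Lrrc57 at 0.199 and Ms4a4b at 0.208, and Il7 to Gm19221 at 0.161 and Gm47665 at 0.229. No niche gene stood among the 3 nearest of another. With 6 libraries and 18113 genes searched for each, such likeness is a description of these libraries.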

How the data were processed

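RNA of monocytes from mandible and femur marrow was sequenced as 3 libraries per site, and groups were taken from the sample titles. According to the methods and the submitters' processing notes, paired reads were trimmed (Trimmomatic), aligned by the authors with HISAT2 2.1.0 to GRCm38 and assigned to genes by featureCounts. The deposited table holds these raw counts, not normalized. The featureCounts version and strand setting are not given in the sources used here. The table and GENCODE M21 shared 52029 gene identifiers, but only 2979 intervals lay within the gene of the same identifier there, so the table's coordinates were not used and gene positions given here are those of M21, matched by identifier.

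The fit used edgeR 4.0.16 under R 4.3.3, on TMM-scaled counts that passed filterByExpr (count 10, total 15), by quasi-likelihood with a prior count of 0.125 and no covariates. A call needed a fold change of 2 or more and a Benjamini-Hochberg adjusted p below 0.05. Single genes and ratios were compared by exact two-sided permutation tests, and levels relative to other lists (prior count 2) were described without a test. The 8 genes and all gene lists were chosen with earlier results of these data known. The genes named were the 8, all receptors, and of each other list at most 3 with the top mean CPM and at most 3 called genes of largest log2 fold change, besides the 3 genes nearest to each of the 8. Others named from the lists were chosen after their values were seen. Some genes that meet the rule are not reported. Alternatives were DESeq2 1.42.0, limma-voom (limma 3.58.1), other scalings, filters, thresholds and prior counts, each library left out in turn, and a loess correction (span 0.4) for gene length, added after the data were seen. The 15718782 to 25371474 counts per library put 3 counts at 0.133 to 0.172 CPM.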

Additional observations from a re-analysis of the deposited data

How the results depend on the processing

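The number of the 8 niche genes called was 0 with edgeR, 2 with DESeq2 and 1 each with limma-voom, with no filter, with at least 10 counts in every library and with the gene length trend removed, a correction chosen after the data were seen. It was 0 to 2 with a library left out: 2, Cxcl12 and Adipoq, without femur S15, and 1, Cxcl12, without mandible S23. The log2 fold change of Cxcl12 passed the threshold in DESeq2 at -1.37, in limma-voom at -1.59, with no filter at -1.46 and with the length trend removed at -2.01, and ran from -2.09 to -1.09 with a library left out. That of Adipoq passed in DESeq2 at -2.32 and with at least 10 counts in every library at -2.33, and ran from -2.71 to -1.94. Angpt1 turned to -0.14 in limma-voom and -0.23 with the length trend removed, and ran from -0.76 to 0.44 with a library left out, negative without femur S15 (-0.11) and mandible S23. Il7 turned to -0.89 in limma-voom and ran from -1.15 to 1.27, lowest without mandible S16. Kitl, Lepr, Foxc1 and Ebf3 stayed below 0 and uncalled in all alternatives run. The number of all genes called was 938 of 18114 tested, against 1547 of 18114 in DESeq2 and 1590 of 42225 tested with no filter. It was 445 at an adjusted p under 0.01. With a library left out it was 434 (without mandible S19) to 1565 (without femur S15), where 18742 to 20226 genes were tested. The share of calls that were higher in the mandible was 74.8%, against 64.1% with no filter, 63.0% with at least 10 counts in every library, and 61.2% to 87.8% with a library left out. Of the reticular stroma list, 11 genes were called higher, and 7 to 9 with a library left out, and 1 was called lower, against 3 with no filter, 0 without normalization factors and 0 to 1 with a library left out. The cause of these changes was not tested. Removing the length trend moved the log2 fold changes of single genes by a median of -0.10. No paired analysis was possible because the library numbers of the sites are not shared. Low counts limit Il7, with 0 counts in mandible S23, and the value of Ebf3 in mandible S16, which rests on 2 counts.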

Other observations

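Other factors that act on blood-forming cells were higher in the mandible or not called. Of 17 tested niche factors outside the 8 genes, 7 were called higher in the mandible and 0 lower in edgeR, against 3.88% higher and 1.3% lower of all genes tested. DESeq2 called 8 higher and limma-voom 4, and both called 0 lower. The median log2 fold change was 1.73, and in edgeR 3 to 7 were called higher with a library left out. Ptn and Bmp4, called higher in edgeR, were also counted in the reticular stroma list. Igf1, a growth factor of bone and blood cells, rose from 3.94 ± 1.41 to 108 ± 70.9 CPM (SD, n = 3 each; edgeR quasi-likelihood, Benjamini-Hochberg adjusted p = 0.00037). Spp1, which encodes osteopontin, rose from 45.6 ± 14.2 to 244 ± 83.2 CPM (edgeR quasi-likelihood, Benjamini-Hochberg adjusted p = 0.0024). Angptl1, a secreted relative of the angiopoietins, rose by 3.83 on the log2 scale (edgeR quasi-likelihood, Benjamini-Hochberg adjusted p = 0.017), a call lost without S13, S18 or S19. Tgfb1, with Spp1 the highest of the list in mean CPM, was not called, at 165 ± 27.0 and 187 ± 14.9 CPM.

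The marker lists of other cells are set against the same shares of all genes tested, 3.88% called higher and 1.3% called lower. These lists were likewise chosen with earlier results of these data known. Of 11 tested megakaryocyte genes, 10 were called lower in the mandible, and their summed level was 728 to 1089 CPM in the femur and 84.1 to 132 CPM in the mandible. Of 9 tested stem and progenitor genes, 4 lay above 0 and 5 below, with a median log2 fold change of -0.45, and the list's sums overlapped, at 88.0 to 149 CPM and 80.2 to 117 CPM. Of 8 tested genes of early B cells, the targets of IL-7, 1 was called higher, Ebf1, which the reticular stroma list also holds and whose call was lost when any 1 library was left out. Of 6 tested adipocyte genes, 2 lay above 0 and 4 below, with a median log2 fold change of -0.13. The 2 above 0 were called higher in edgeR, and limma-voom called 0. They were Plin4, whose call was lost when any 1 library was left out, and Car3. Plin1, Lep and Retn had 0 counts in all 3 mandible libraries and also in 1 or 2 femur libraries each, and Cidec had 0 counts in all 6. Of 9 tested endothelial genes, 4 lay above 0 and 5 below, and 1 was called lower in edgeR, Esam, which limma-voom did not call. Among 7 tested epithelial genes, 2 were called higher, the keratin genes Krt5 and Krt14.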
